A study of Mus musculus with 8 samples.

Results

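The genes described here are 10 genes of the hypoxia response and of erythropoietin control: Hif1a, Epas1, Egln1, Egln3, Vegfa, Adm, Bnip3, Ankrd37, Ndrg1, and Epo. They were taken by symbol from the deposited table of counts per gene, which lists 55367 genes, and all 10 were found. RNA-Seq was performed on whole kidneys of 8 C57BL/6J mice aged 8 weeks. Of these, 4 were c-MafΔTAM mice (labeled Maf conditional KO), which carry floxed c-Maf together with the CAG-Cre-ER TM transgene. The other 4 were c-Maf fl/fl mice (labeled Maf flox/flox, and called controls below), which carry the floxed alleles without Cre. Tamoxifen (TAM), which activates the Cre recombinase, was given to both groups according to the study's methods. The CAG promoter is active in most tissues, so c-Maf was deleted beyond the kidney. The comparison asked which genes differed in the adult kidney after c-Maf was removed.

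Cells sense oxygen through prolyl hydroxylases (the EGLN enzymes), which mark the alpha subunits HIF-1α and HIF-2α for destruction when oxygen is plentiful. When oxygen falls, the alpha subunits persist, pair with ARNT, and turn on genes for vessel growth, glycolysis, mitochondrial turnover, and red cell production. Much of this control acts on the proteins, so mRNA levels of the alpha subunits report only part of it. In the kidney, interstitial fibroblasts make erythropoietin largely under HIF-2α, while podocytes and tubule cells are major sources of VEGF-A.

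Totals ranged from 16649129 to 22990257 counts per mouse, and 20149 genes passed the filter on low counts and were tested. Levels are given as TMM-normalized CPM values (counts divided by the scaled library size), always in the order of replicates 1 to 4. Fold changes are c-MafΔTAM over c-Maf fl/fl on the log2 scale, with P values from edgeR's quasi-likelihood test adjusted by the Benjamini-Hochberg method over all tested genes, and a gene was called when the adjusted P was under 0.05. The targeted gene, Maf, was at 9.06, 34.5, 29.6, and 10.1 CPM in c-MafΔTAM mice and at 380, 342, 305, and 351 CPM in control mice, which fits the labels. Across all genes, 436 (2.16%) were called, 318 of them (1.58%) lower in c-MafΔTAM kidneys, and the median log2 fold change was 0.00. The labels do not state the sexes. Xist, the RNA that silences 1 X chromosome in female cells, had 2 to 22 counts in c-MafΔTAM mouse 1 and control mice 3 and 4, against 17618 to 22387 in the other 5 mice, so values are also given by Xist class where they differ. Mitochondrial genes took 17.1% to 32.3% of the counts, with the highest share in c-MafΔTAM mouse 1. The extraction text in the labels names liver, but the tissue label is whole kidney. The thick limb gene Umod averaged 2588 CPM in c-MafΔTAM and 2829 CPM in control mice, whereas albumin (Alb), the leading hepatocyte transcript, lay between 0.661 and 8.85 CPM.

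Promoters are shown for Vegfa, the only one of the 10 genes that was called, for Adm, which had the next smallest P, and for Ackr3, a receptor for adrenomedullin that was called lower. Each is the 250 bases before the RefSeq transcription start in GRCm38.p6, 5′ to 3′ on the gene's strand. Capitals mark the core letters bound by HIF, ACGTG or GCGTG, and the half-MARE core TGCTGA recognized by large Maf factors, on either strand.
Vegfa (chr17:46032378-46032627, minus strand): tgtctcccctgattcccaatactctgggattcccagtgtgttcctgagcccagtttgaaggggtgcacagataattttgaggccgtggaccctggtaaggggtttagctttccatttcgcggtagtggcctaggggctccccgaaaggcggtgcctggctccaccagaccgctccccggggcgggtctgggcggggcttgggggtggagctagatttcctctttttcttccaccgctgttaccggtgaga
Adm (chr7:110627407-110627656, plus strand): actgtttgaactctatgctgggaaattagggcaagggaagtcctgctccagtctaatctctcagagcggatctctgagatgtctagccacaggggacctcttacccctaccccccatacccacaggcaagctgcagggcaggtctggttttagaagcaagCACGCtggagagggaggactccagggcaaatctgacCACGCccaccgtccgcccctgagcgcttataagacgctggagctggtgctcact
Ackr3 (chr1:90203730-90203979, plus strand): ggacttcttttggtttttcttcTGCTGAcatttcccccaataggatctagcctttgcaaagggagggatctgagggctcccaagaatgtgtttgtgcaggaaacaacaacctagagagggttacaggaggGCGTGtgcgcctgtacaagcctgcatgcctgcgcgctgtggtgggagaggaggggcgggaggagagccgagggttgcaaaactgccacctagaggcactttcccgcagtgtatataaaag

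The Vegfa window held none of these letters, which says nothing about sites farther away. The Adm window held GCGTG on the reverse strand, starting 90 and 54 bases before the transcription start. The Ackr3 window held GCGTG at 120 bases and TGCTGA at 228 bases before the start. RefSeq promoters were matched for 8 of the 10 genes (Hif1a, Vegfa, Egln1, Egln3, Bnip3, Ankrd37, Adm, and Epo), with a second window for Vegfa inside the gene. Of these 9 windows, 8 held ACGTG or GCGTG, as did 38.6% of all 32851 promoter windows of the same length. ACGTG was present in 16.6%, GCGTG in 28.2%, and TGCTGA in 16.1% of all windows, and the TRE-type core TGAGTCA in 4.46%. ACGTG overlapped its own reverse complement in the Hif1a and Bnip3 windows, as did GCGTG in the Ankrd37 window. Of the 9 windows of the 10 genes, only that of Epo held TGCTGA, and none held TGAGTCA.

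Per exon length, the order of the genes was led by Ndrg1, at 195 ± 97.2 RPKM (SD, n = 4; RPKM is the CPM divided by the exon length in kilobases) in control and 122 ± 34.9 RPKM in c-MafΔTAM kidneys. In control kidneys Vegfa (53.2 ± 5.78 RPKM) and Epas1 (50.6 ± 4.50 RPKM) followed, and their spreads overlapped. Egln1 (24.1 ± 1.19 RPKM), Hif1a (15.0 ± 1.61 RPKM), and Bnip3 (6.51 ± 0.842 RPKM) came next, each separated from its neighbor by more than the SDs. Adm (3.93 ± 0.629 RPKM) and Egln3 (3.47 ± 1.31 RPKM) overlapped. Epo (0.534 ± 0.643 RPKM) and Ankrd37 (0.440 ± 0.0910 RPKM) were lowest and also overlapped. In c-MafΔTAM kidneys the one shift in order was that Epas1 (47.2 ± 4.43 RPKM) averaged above Vegfa (38.1 ± 3.56 RPKM). Thus mRNA for the HIF-2α subunit was more abundant per length than mRNA for HIF-1α in both genotypes.

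**Figure D1:**
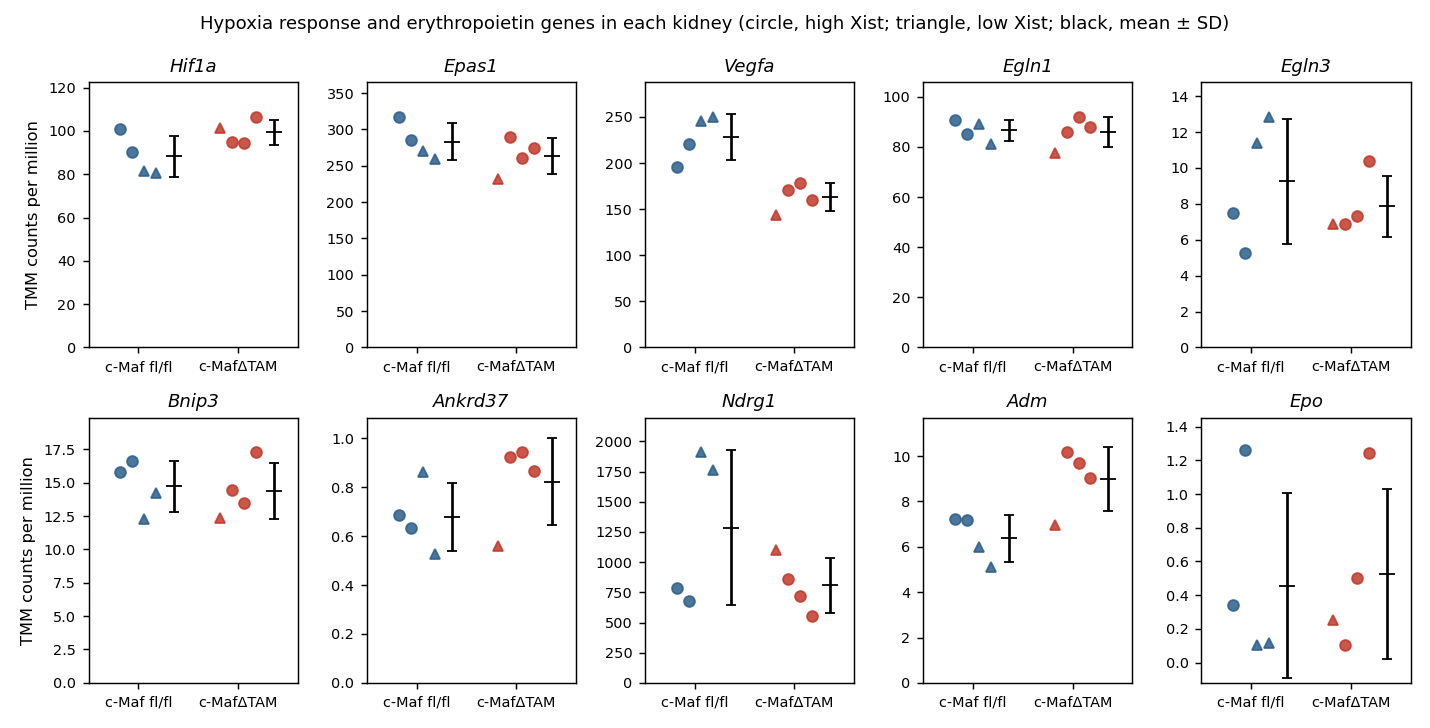
TMM-scaled CPM (vertical axes, linear, 1 panel per gene) in each c-Maf fl/fl (blue) and c-MafΔTAM (red) kidney; circles are mice with high Xist, triangles mice with low Xist, and black marks the mean ± SD of 4 mice. Only the Vegfa points of the genotypes do not overlap, whereas the Ndrg1 triangles all lie above the circles and the Adm triangles all lie below them.

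Of the 9 genes that could be tested, Vegfa was the only one called, lower in c-MafΔTAM kidneys, beside 2.16% of all genes called and 1.58% called lower. Adm was the only other one with an unadjusted P under 0.05. The 9 log2 fold changes were positive for 3 genes and negative for 6, with a median of -0.04. The values of the genotypes did not overlap for 1 of the 9 genes, against 9.79% of all tested genes. With 9 genes, 1 call or 1 separation is too few to set the genes apart from that background.

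The oxygen-sensing genes came first in the pathway and none of the 4 was called. Hif1a (chromosome 12, 73901375 to 73947530, plus strand), which encodes HIF-1α, was at 101.5, 94.9, 94.2, and 106 CPM in c-MafΔTAM mice and at 101, 90.1, 81.3, and 80.7 CPM in control mice. The groups overlapped through control mouse 1, and the 2 lowest values were those of the control mice with low Xist. Hif1a thus had a log2 fold change of 0.17 (95% confidence interval -0.03 to 0.37, adjusted P = 0.452, edgeR). Epas1 (chromosome 17, 86753700 to 86833410, plus strand), which encodes HIF-2α, was at 231, 289, 261, and 275 CPM in c-MafΔTAM mice and at 317, 285, 271, and 259 CPM in control mice. The groups overlapped, with the lowest value in c-MafΔTAM mouse 1. Epas1 had a log2 fold change of -0.10 (95% confidence interval -0.32 to 0.12, adjusted P = 0.718, edgeR).

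Egln1 (chromosome 8, 124908587 to 124949324, minus strand), the main oxygen-sensing hydroxylase in most cells, lay between 77.7 and 92.0 CPM in c-MafΔTAM mice and between 81.2 and 90.6 CPM in control mice. Its log2 fold change was -0.01 (95% confidence interval -0.19 to 0.16, adjusted P = 0.970, edgeR), the narrowest interval among the 9 genes, so a change beyond these bounds was not seen in either direction. Egln3 (chromosome 12, 54178981 to 54203860, minus strand), a hydroxylase that is itself a HIF target, was at 6.87, 6.88, 7.32, and 10.4 CPM in c-MafΔTAM mice and at 7.50, 5.24, 11.4, and 12.8 CPM in control mice. The 2 highest values were those of the control mice with low Xist, and the third highest was c-MafΔTAM mouse 4. Egln3 had a log2 fold change of -0.23 (95% confidence interval -0.82 to 0.36, adjusted P = 0.767, edgeR), and it turned to 0.36 (adjusted P = 0.505, edgeR) when just the 5 high-Xist kidneys were fitted.

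Vegfa (chromosome 17, 46016993 to 46032369, minus strand) encodes VEGF-A, the main growth factor for vessels and a HIF target. It was at 143, 170.3, 179, and 160.1 CPM in c-MafΔTAM mice, from 2816, 3316, 3224, and 2957 counts. In control mice it was at 196, 221, 245, and 250.0 CPM, from 4000, 4897, 4832, and 4264 counts. Every c-MafΔTAM kidney lay below every control kidney, with the lowest value in c-MafΔTAM mouse 1 and the 2 highest in the control mice with low Xist. The means were 163 ± 15.3 and 228 ± 24.8 CPM (SD, n = 4), a log2 fold change of -0.48 (SE 0.10, 95% confidence interval -0.71 to -0.26), or -28.5%. The adjusted P was 0.0339 by edgeR's quasi-likelihood test. A 2-sided exact permutation test of Vegfa alone gave P = 0.0286, which is the smallest that 4 mice against 4 allow.

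The direction of the Vegfa difference was kept whichever mouse was left out (log2 fold change -0.55 to -0.42), but its call was not. Quantile normalization with limma-trend, a normalization of the kind that the study's methods name, gave -0.39 and also ended the call (adjusted P = 0.0629, limma). The adjusted P (edgeR) was 0.0551, 0.0900, 0.0669, and 0.0827 without c-MafΔTAM mice 1 to 4 in turn. Without control mice 2, 3, and 4 it was 0.0735, 0.112, and 0.0958, and only without control mouse 1 did it pass, at 0.0212. The size also differed with Xist class: the log2 ratio of mean CPM was -0.30 among the 5 mice with high Xist and -0.79 among the 3 with low Xist, of which 1 was a c-MafΔTAM mouse. A fit to those 5 kidneys gave -0.30 (adjusted P = 0.0764, edgeR), while Xist level as a covariate gave -0.48 (adjusted P = 0.00474). The difference between Xist classes was not tested.

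**Figure D2:**
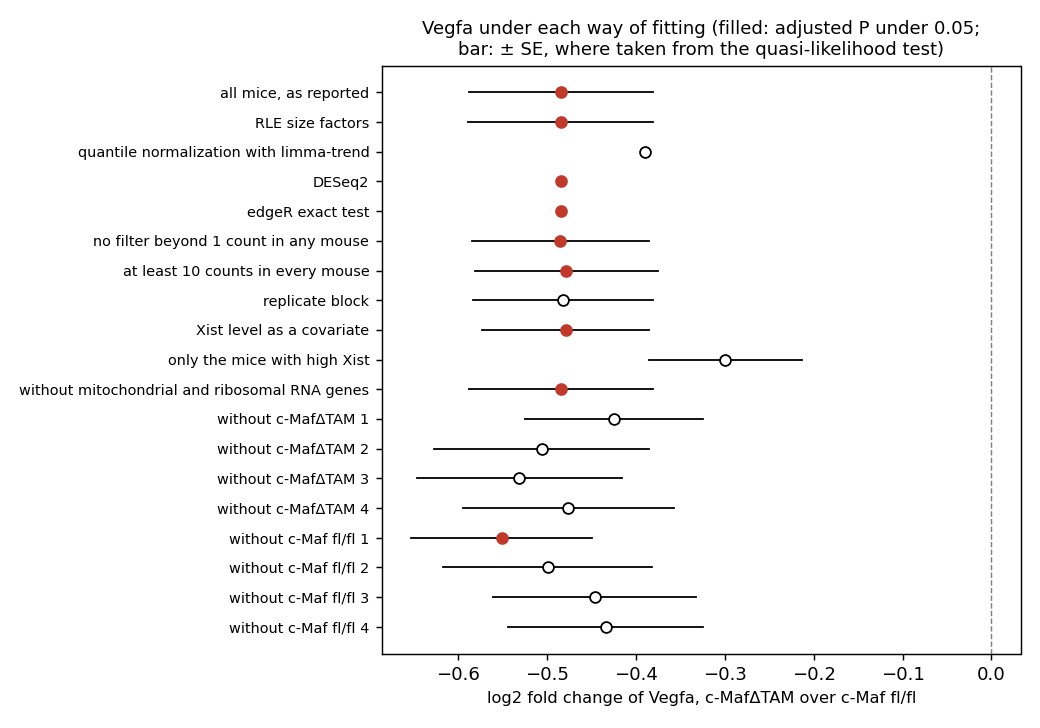
Log2 fold change of Vegfa (horizontal axis, c-MafΔTAM over c-Maf fl/fl) under each way of fitting, 1 line per setting, with bars of ± SE for the quasi-likelihood fits and filled points where the adjusted P was under 0.05. All values lie between -0.55 and -0.30, below 0, while 7 of the 8 fits that leave out 1 mouse are open.

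Among the 9 tested VEGF ligands and receptors, 2 were called (beside 2.16% of all tested genes), both lower: Vegfa and Kdr, which encodes VEGFR2, the main signaling receptor for VEGF-A on endothelium. Kdr (chromosome 5, 75932827 to 75978458, minus strand) was at 85.8, 88.1, 89.5, and 75.5 CPM in c-MafΔTAM mice and at 107, 105, 120.5, and 106 CPM in control mice. The groups did not overlap, and control mouse 3 was the highest. For Kdr the log2 fold change was -0.37 (95% confidence interval -0.56 to -0.19, adjusted P = 0.0450, edgeR). This call was lost when any of the 8 mice was left out, with adjusted P from 0.0552 to 0.138, and held in 6 of 10 other alternatives. Of the 9 genes, 7 had negative and 2 positive fold changes, and 3 had an unadjusted P under 0.05 (beside 14.02% of all tested genes). The third of these, named after its values were seen, was Vegfd, which encodes VEGF-D, a growth factor for lymphatic vessels. It was at 9.82, 8.27, 7.43, and 9.69 CPM in c-MafΔTAM mice and at 7.55, 5.37, 5.07, and 4.28 CPM in control mice. The groups overlapped only through c-MafΔTAM mouse 3 and control mouse 1, and the log2 fold change of Vegfd was 0.66 (95% confidence interval 0.25 to 1.07, adjusted P = 0.112, edgeR). Vegfd was called higher by DESeq2 (adjusted P = 0.0315), with Xist as a covariate (0.0418, edgeR), and without control mouse 1 (0.0358, edgeR), and in no other alternative run. Flt1, which encodes VEGFR1, had a log2 fold change of -0.12 (95% confidence interval -0.32 to 0.09, adjusted P = 0.628, edgeR).

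Markers of the cells that make or receive VEGF-A gave mixed values. Of 12 endothelial markers, 1 (Kdr) was called (beside 2.16% of all tested genes), 9 had negative fold changes, and the median was -0.14. Their summed level was 665 to 760.1 CPM in c-MafΔTAM and 743 to 851 CPM in control mice. Of 10 podocyte markers 0 were called by edgeR (1 with an unadjusted P under 0.05, the matrix gene Npnt at 0.63, beside 14.02% of all tested genes). Npnt was called higher in 4 of 10 alternatives (DESeq2, the exact test, the Xist covariate, and the 5 high-Xist kidneys) and in 1 of the 8 fits without 1 mouse (adjusted P = 0.0489 without c-MafΔTAM mouse 1, edgeR). Of the podocyte markers 8 had positive fold changes, with a median of 0.06 and summed levels of 708 to 972 CPM and 631 to 836 CPM. Of 13 markers of proximal tubule segments S1 and S2, 6 were called, all lower (beside 1.58% of all tested genes called lower), with a median log2 fold change of -0.99 and summed levels of 10333 to 14372 CPM against 17623 to 19958 CPM. All 13 of these tubule markers had negative fold changes, but of unequal size. Slc5a2 was at -3.71 and was called, while Lrp2 (-0.17) and Cubn (-0.03) were not called (edgeR). The study reports Slc5a2 (Sglt2) as a direct target of c-Maf. Its histology found glomeruli and proximal tubule brush borders without significant structural change. The part of any of these cell types in the Vegfa difference was not tested. From whole-tissue RNA alone, fewer cells of a type and less RNA per cell cannot be told apart.

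Adm (chromosome 7, 110627661 to 110629820, plus strand) encodes adrenomedullin, a peptide that widens vessels and is induced by HIF. It was at 6.97, 10.2, 9.70, and 9.04 CPM in c-MafΔTAM mice and at 7.21, 7.18, 5.99, and 5.10 CPM in control mice, from 87 to 198 counts per mouse. Within each genotype the mice with low Xist were the lowest, and the groups overlapped through c-MafΔTAM mouse 1. The means were 8.97 ± 1.41 and 6.37 ± 1.02 CPM (SD, n = 4), and the log2 fold change was 0.49 (95% confidence interval 0.12 to 0.86). The unadjusted P of edgeR's quasi-likelihood test was 0.0137 and the adjusted P was 0.204, so Adm was not called. Its log2 fold change stayed between 0.40 and 0.60 in every alternative run, and none called it.

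Of the 6 tested genes of the adrenomedullin system, Ackr3 was the only one called (beside 2.16% of all tested genes). Ackr3 (chromosome 1, 90203980 to 90216751, plus strand) encodes an atypical receptor that binds and removes adrenomedullin and the chemokine CXCL12. It was at 35.8, 26.5, 28.4, and 30.2 CPM in c-MafΔTAM mice and at 44.3, 49.3, 56.0, and 58.5 CPM in control mice. The groups were well apart, and in each genotype the mice with low Xist were the highest. The log2 fold change of Ackr3 was -0.78 (95% confidence interval -1.04 to -0.53, adjusted P = 0.00437, edgeR), and it passed in all 8 fits that left out 1 mouse and in 9 of 10 other alternatives. The adrenomedullin receptor Calcrl (0.06, 95% confidence interval -0.25 to 0.37) and its partners Ramp2 (-0.21, -0.66 to 0.24) and Ramp3 (-0.05, -0.39 to 0.29) were not called.

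**Figure D3:**
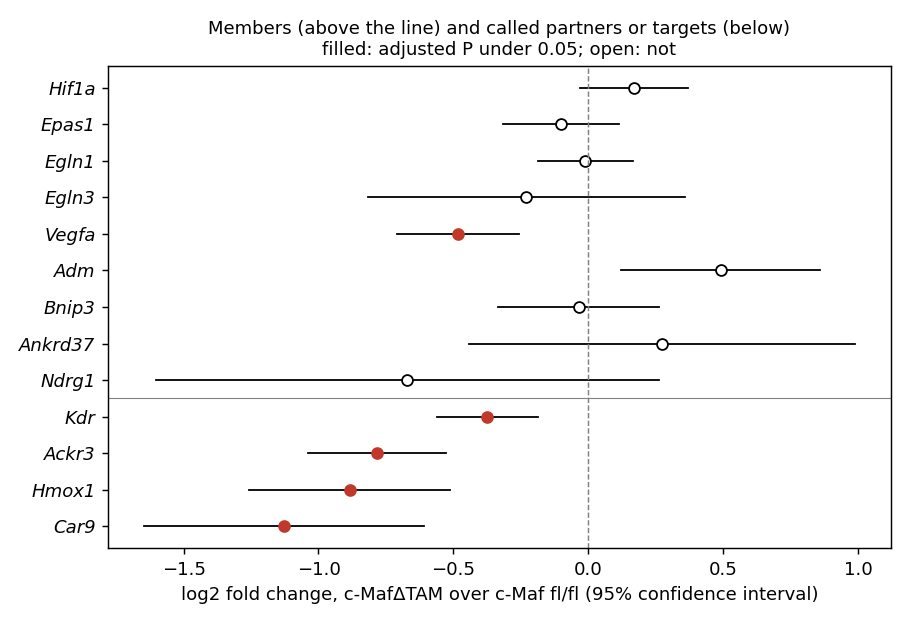
Log2 fold changes (horizontal axis, c-MafΔTAM over c-Maf fl/fl) with 95% confidence intervals for the 9 tested genes of the set (above the grey line) and for 4 called receptors or HIF targets (below it); filled points had an adjusted P under 0.05. Of the 9, Vegfa alone is filled, the Adm interval also lies away from 0, and the Ndrg1 interval is the widest.

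Bnip3, Ankrd37, and Ndrg1 are HIF targets with other functions, and none of the 3 was called. Bnip3 (chromosome 7, 138890836 to 138909519, minus strand), which marks mitochondria for removal, lay between 12.4 and 17.3 CPM in c-MafΔTAM mice and between 12.3 and 16.6 CPM in control mice. Bnip3 had a log2 fold change of -0.04 (95% confidence interval -0.33 to 0.26, adjusted P = 0.940, edgeR). Since 54.5% of its 36-base sequences also occurred in transcripts of other genes, its level is uncertain. Its relative Bnip3l, also a mitophagy receptor, had a log2 fold change of 0.12 (95% confidence interval -0.04 to 0.28). Of the 5 mitophagy receptor genes 0 were called by edgeR, beside 2.16% of all tested genes (1, Phb2, with an unadjusted P under 0.05, beside 14.02% of all tested genes). Fundc1, another of these receptors, was at 0.17 (95% confidence interval -0.04 to 0.38).

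Ankrd37 (chromosome 8, 45996902 to 46005707, minus strand), an ankyrin repeat gene known as a HIF-1 target, was near the lower limit of detection. It had 11, 18, 17, and 16 counts in c-MafΔTAM mice and 14, 14, 17, and 9 counts in control mice. The groups overlapped, and the log2 fold change of Ankrd37 was 0.27 (95% confidence interval -0.44 to 0.99, adjusted P = 0.776, edgeR). A difference within these bounds was not detectable at this depth. Of the exon bases of Ankrd37, 26.4% were shared with Lrp2bp and Ufsp2, and reads on such bases were not counted.

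Ndrg1 (chromosome 15, 66929318 to 66969640, minus strand), a stress-responsive gene of epithelial differentiation, separated by Xist class. It was at 1099, 859, 718, and 556 CPM in c-MafΔTAM mice and at 787, 681, 1909.8, and 1766 CPM in control mice. The 3 mice with low Xist (1099 to 1909.8 CPM) all lay above the 5 with high Xist (556 to 859 CPM), whereas the genotypes overlapped. The log2 fold change between genotypes was -0.67 (95% confidence interval -1.60 to 0.26, adjusted P = 0.520, edgeR). Fitted to the 5 high-Xist kidneys, it was -0.05 (adjusted P = 0.948), and with the Xist level as a covariate -0.36 (adjusted P = 0.417, both edgeR). None of the 4 NDRG genes was called by edgeR (0 with an unadjusted P under 0.05), beside 2.16% of all tested genes called and 14.02% with such a P. Ndrg3 was at 0.18 (95% confidence interval -0.02 to 0.37).

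Within control mice, the log2 ratio of mean CPM between low and high Xist was 1.32 for Ndrg1, 0.93 for Egln3, and -0.38 for Adm, from 2 mice each. For c-MafΔTAM mice, with a single low-Xist mouse, the ratios were 0.63 for Ndrg1, -0.26 for Egln3, and -0.47 for Adm. Epo (-2.88 and -1.28) and Ankrd37 (0.08 and -0.70) rested on few counts, and their values overlapped between the classes. Ndrg1 and Adm were thus the 2 of 9 tested genes whose values did not overlap between Xist classes, beside 14.3% of all tested genes. Markers of other cells also separated by Xist class, with no overlap for 7 of 10 S3 proximal tubule markers and 8 of 10 podocyte markers. The summed S3 level was 4422 to 6214 CPM in the mice with low Xist and 2026 to 2530.0 CPM in the others. Their part in the Ndrg1 values was not tested.

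Epo (chromosome 5, 137483020 to 137533242, minus strand), which encodes the hormone that drives red cell production, was barely detected. It had 5, 2, 9, and 23 counts in c-MafΔTAM mice and 7, 28, 2, and 2 counts in control mice, which is 0.101 to 1.26 CPM. Within each genotype 1 mouse stood above the rest (c-MafΔTAM mouse 4 and control mouse 2), both of them with high Xist, and the groups overlapped fully. Epo failed the filter on low counts and was not tested across genes. A 2-sided exact permutation test gave P = 0.800, and a fit without the filter gave a log2 fold change of 0.15 (SE 0.89, adjusted P = 0.975, edgeR). With these few counts and this spread between mice, a difference in Epo could not be resolved. Of the exon bases of Epo, 12.2% were shared with Gnb2 and could not be counted.

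None of the 10 tested genes of the Epo list was called (edgeR, beside 2.16% of all tested genes), although 3 had an unadjusted P under 0.05 (beside 14.02% of all tested genes). The largest of these 3 differences, named after its value was seen, was that of Tfrc, the transferrin receptor that takes up iron and is also a HIF target. Tfrc was at 116, 91.9, 107, and 38.3 CPM in c-MafΔTAM mice and at 31.98, 32.2, 50.4, and 49.0 CPM in control mice. The groups overlapped through c-MafΔTAM mouse 4, and the log2 fold change of Tfrc was 1.11 (95% confidence interval 0.27 to 1.95, adjusted P = 0.223, edgeR). Tfrc was called higher by DESeq2 (adjusted P = 0.00551), by edgeR's exact test (0.0156), and by the quasi-likelihood test without c-MafΔTAM mouse 4 (0.00627). Jak2, which carries the Epo receptor's signal, was at 0.29 on the log2 scale (95% confidence interval 0.12 to 0.46, adjusted P = 0.0913, edgeR), and was called in 2 of 10 alternatives, by DESeq2 (adjusted P = 0.0370) and with Xist as a covariate (0.0355, edgeR). Rxra, a nuclear receptor listed for Epo control, was at -0.30 (95% confidence interval -0.52 to -0.08, adjusted P = 0.190). The receptor gene Epor lay between 1.39 and 6.55 CPM, with the highest value in c-MafΔTAM mouse 4, and its log2 fold change was 0.13 (95% confidence interval -0.94 to 1.21, adjusted P = 0.937). Of 7 tested erythroid markers 0 were called (1 with an unadjusted P under 0.05, the hemoglobin gene Hba-a2, at -0.36 and uncertain because Hba-a1 is nearly identical), with a median log2 fold change of -0.31. Fibroblast markers, among them those of the cells that make Epo, were called in 0 of 10 cases (0 with an unadjusted P under 0.05), with a median of 0.11. Of these, 8 had positive and 2 negative fold changes. The largest was that of Nt5e, at 0.73 (95% confidence interval -0.48 to 1.94, adjusted P = 0.595, edgeR). Nt5e was called higher in 2 of 10 alternatives, with the Xist covariate and in the 5 high-Xist kidneys. Its log2 ratio of mean CPM was 0.99 in mice with high Xist and 1.13 in those with low Xist.

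The remaining marker lists held few calls. Called genes numbered 0 of 10 for the S3 segment, 0 of 7 for the thick limb, 0 of 8 for the collecting duct, 0 of 10 for macrophages, and 0 of 8 for hepatocytes (edgeR; 2, 0, 0, 3, and 3 with an unadjusted P under 0.05, beside 2.16% of all tested genes called and 14.02% with such a P). Of the macrophage markers 7 of 10 had positive fold changes, with a median of 0.21, and their summed level was 119 to 129 CPM in c-MafΔTAM and 101 to 114 CPM in control mice, with no overlap; its part in the results above was not tested. Of the hepatocyte markers 3 had positive and 5 negative fold changes, with a median of -0.14. Among them Alb was at -2.04 (adjusted P = 0.0803, edgeR) and was called lower in 4 of 10 alternatives. In the other direction, Serpina1a was at 1.99 (adjusted P = 0.286, edgeR) and was called higher in 2 of 10 alternatives. Of 9 injury markers, read against the same shares, 7 had positive and 2 negative fold changes, 3 had an unadjusted P under 0.05, and 1 was called, Krt8, at a log2 fold change of -0.72 (adjusted P = 0.00517, edgeR). The other two, named after their values were seen, were Cdkn1a, which encodes the cell cycle inhibitor p21, at 1.32 with no overlap between the groups (18.8 against 7.47 CPM on average, adjusted P = 0.104, edgeR), and the adhesion molecule gene Vcam1 at 0.44 (adjusted P = 0.353). Cdkn1a was called in 3 of 10 alternatives (DESeq2, the exact test, and the Xist covariate) and in 0 of the 8 fits without 1 mouse. Exon bases shared with another gene made up 8.11% for Hif1a, 22.3% for Bnip3, and 8.43% for Ndrg1, and 0% for Epas1, Vegfa, Egln1, Egln3, and Adm.

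The wider HIF pathway, without the 10 genes described above, gave 2 called genes among 81 tested (2.47%, beside 2.16% of all tested genes), from 82 found in the file. Both were lower in c-MafΔTAM kidneys, the median log2 fold change was -0.01, and 11 genes (13.6%, beside 14.02% of all tested genes) had an unadjusted P under 0.05. Which further genes were called depended on the fit: DESeq2, the Xist covariate, and the 5 high-Xist kidneys each gave 4 lower and 2 higher, and edgeR's exact test gave 2 of each. The 2 genes, Hmox1 and Car9, were among the lower ones in each of these fits. Hmox1, which degrades heme and is also induced by NRF2, was at 18.9, 11.4, 14.5, and 12.1 CPM in c-MafΔTAM mice and at 21.9, 23.3, 30.6, and 29.2 CPM in control mice. The groups did not overlap, and the log2 fold change of Hmox1 was -0.88 (95% confidence interval -1.26 to -0.51, adjusted P = 0.0194, edgeR). Without c-MafΔTAM mice 2, 3, or 4 the adjusted P of Hmox1 was 0.0668, 0.0786, or 0.0573, and without control mice 3 or 4 it was 0.0662 or 0.0607. The call held in 3 of the 8 fits that left out 1 mouse and in 9 of 10 other alternatives.

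Car9, a carbonic anhydrase at the cell surface that is a classic HIF-1 target, was at 2.85, 1.39, 1.61, and 1.62 CPM in c-MafΔTAM mice and at 4.17, 4.06, 4.21, and 3.93 CPM in control mice. The groups did not overlap, although c-MafΔTAM mouse 1 lay between its group and the control mice. The log2 fold change of Car9 was -1.13 (95% confidence interval -1.65 to -0.61, adjusted P = 0.0311, edgeR), from 27 to 90 counts per mouse. Among the 8 fits that left out 1 mouse, the call held only without c-MafΔTAM mouse 1, and the others gave adjusted P from 0.0654 to 0.114. It held in 9 of 10 other alternatives. Of the exon bases of Car9, 9.29% were shared with Gm12454 on the other strand.

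Stc2, a secreted glycoprotein gene induced by HIF-1, missed the threshold narrowly and is named after its values were seen. It was at 9.46, 15.5, 18.02, and 13.1 CPM in c-MafΔTAM mice and at 8.44, 7.58, 8.73, and 5.34 CPM in control mice. The groups did not overlap, and the log2 fold change of Stc2 was 0.89 (95% confidence interval 0.44 to 1.35, adjusted P = 0.0527, edgeR). It was called higher in 6 of 10 alternatives and, with 1 mouse left out, only without c-MafΔTAM mouse 1 (adjusted P = 0.0101, edgeR).

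No gene of the HIF machinery (0 of 22, with 2 at an unadjusted P under 0.05) and no glycolytic HIF target (0 of 20, with 2) was called by edgeR, beside 2.16% of all tested genes called and 14.02% with an unadjusted P under 0.05. The smallest P of the machinery was that of Arnt2, a relative of Arnt, at -0.28 (95% confidence interval -0.49 to -0.07, adjusted P = 0.194, edgeR). Vhl, which recruits the ligase that destroys HIF-α, had a log2 fold change of -0.05 (95% confidence interval -0.33 to 0.23). Arnt, the shared partner of the alpha subunits, was at -0.02 (95% confidence interval -0.18 to 0.14). Egln2, the third hydroxylase, was at -0.22 (95% confidence interval -0.41 to -0.02, adjusted P = 0.292, edgeR) with no overlap between the groups (42.9 to 52.8 CPM against 54.7 to 62.4 CPM). The hydroxylase Hif1an, which blocks HIF-α activity, was at -0.03, and the inhibitory subunit Hif3a was at -0.45 (95% confidence interval -1.74 to 0.84). Among the glycolytic targets, Gpi1 (-0.21, adjusted P = 0.246) and Aldoa (-0.18, adjusted P = 0.345) had the smallest P values by edgeR. The median log2 fold change was -0.04 for the machinery and 0.01 for the glycolytic targets, beside 0.00 for all tested genes.

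**Figure D4:**
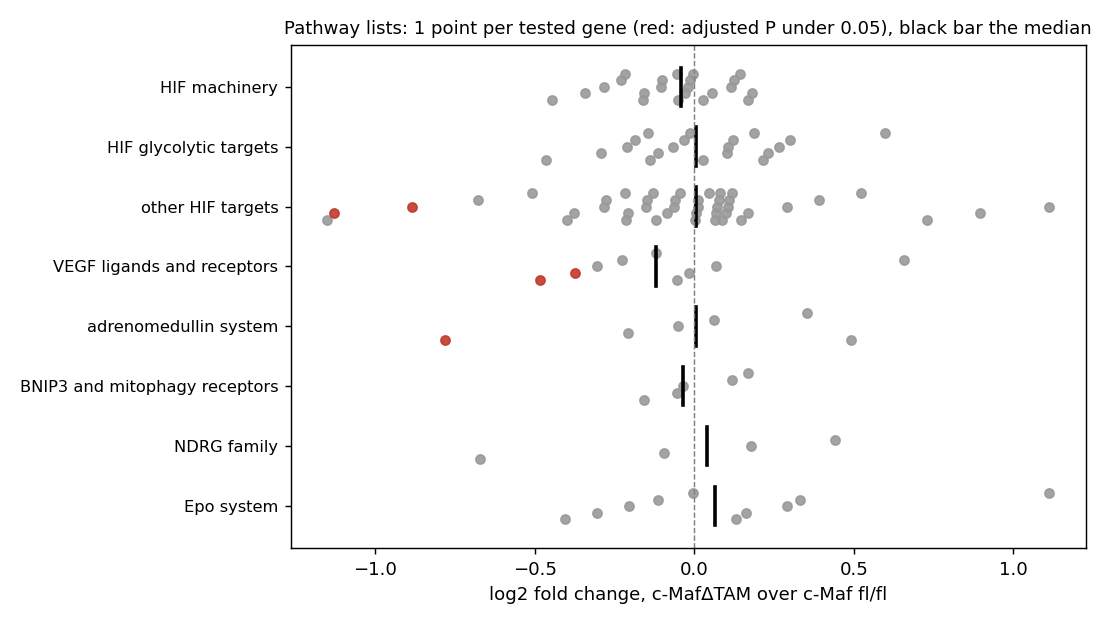
Log2 fold change (horizontal axis, c-MafΔTAM over c-Maf fl/fl) of every tested gene in 8 lists of the HIF, VEGF, adrenomedullin, mitophagy, NDRG, and Epo systems; genes may stand in more than 1 list, red points had an adjusted P under 0.05, and black bars mark medians. The red points are Car9, Hmox1, Vegfa, Kdr, and Ackr3, all below 0, and the medians lie between -0.12 and 0.06.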

How the data were processed

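The authors deposited whole-number read counts per gene name for 8 kidneys, made with featureCounts 2.0.1 on Ensembl release 102 exons of GRCm38, unstranded and not normalized. Each read of a pair was counted separately, and reads on exons of more than 1 gene were left out. The submitters' notes list Subread 2.0.2 and edgeR 3.36.0, the study's methods map reads to mm10 in CLC Genomics Workbench, and the file header does not say which alignments were counted. Libraries were rRNA-depleted, from a directional kit. Exon lengths (other) are from the deposited file.

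Genes were filtered with filterByExpr, scaled by TMM, and tested with robust quasi-likelihood fits in edgeR 4.0.16 (R 4.3.3, limma 3.58.1, prior count 2), after simulated counts had been tested. The biological coefficient of variation was 0.203. Exact permutation tests used all 70 assignments. Whether mice came from separate litters is not stated. Every pair of libraries of the same genotype differed by more than sampling noise. Confidence intervals are 95%.

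The 10 genes, the lists, and the named genes were chosen with earlier results of these data known. Named genes were the 10, Maf, all called genes of a list (at most 4) or else its 2 smallest P, and the partners of each gene; markers of other cells are given mostly as counts. Alternatives were RLE factors, quantile normalization with limma-trend, DESeq2 1.42.0, edgeR's exact test, 2 filters, a replicate block, Xist as a covariate, the 5 mice with high Xist, libraries without mitochondrial and ribosomal RNA genes, and each mouse left out. Sequence overlap used GENCODE transcripts of GRCm38, and figures used matplotlib 3.10.9.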

Additional observations from a re-analysis of the deposited data

Results flagged for a closer look

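Within each genotype, the highest or lowest of the 4 mice stood apart from the other 3 by Dixon's test in 10 of 110 groups of values examined for the named genes, where chance alone flags about 1 in 20 groups (5.50 of 110). Among the 10 genes only Egln3 was concerned, with 10.4 CPM in c-MafΔTAM mouse 4 against 6.87 to 7.32 CPM in its group. Among the HIF machinery, Egln2 was at 62.4 CPM in control mouse 4 against 54.7 to 55.5 CPM, and Hif3a was at 6.71 CPM in c-MafΔTAM mouse 4 against 1.63 to 2.31 CPM. Kdr was at 120.5 CPM in control mouse 3 against 105 to 107 CPM. In c-MafΔTAM mouse 1, which also had the highest mitochondrial share and low Xist, Gpi1 was at 137 CPM against 155 to 157 CPM, Car9 at 2.85 CPM against 1.39 to 1.62 CPM, and Nt5e at 244 CPM against 78.4 to 105 CPM. The fibroblast gene Lum was at 2.44 CPM in c-MafΔTAM mouse 3 against 1.08 to 1.27 CPM. The S3 transporter genes Slc22a19 (99.6 CPM in control mouse 1 against 139.9 to 146 CPM) and Slc5a10 (176 CPM in control mouse 3 against 127 to 135 CPM) completed the list.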

How the results depend on the processing

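The count of all called genes (436) became 886 with DESeq2, 676 with edgeR's exact test, 129 with the replicate block, 1373 with Xist level as a covariate, and 789 in the mice with high Xist alone; leaving out 1 mouse gave 239 to 452, with 256 without c-MafΔTAM mouse 2, 239 without mouse 3, and 285 without control mouse 3. The unfiltered fit called 600 of 37792 genes. The count among the 10 genes (1, Vegfa) fell to 0 with quantile normalization (Vegfa adjusted P = 0.0629, limma), with the replicate block (0.121, edgeR), and in the mice with high Xist, and was 0 to 1 with 1 mouse left out. The wider HIF count (2, both lower) became 6 with DESeq2, 6 with Xist as a covariate, and 6 in the mice with high Xist (each 2 higher), 4 with the exact test (2 higher), 4 without the filter (1 higher), and 0 with the replicate block, and was 0 to 4 with 1 mouse left out. Under the block the call of Ackr3 was lost as well (adjusted P = 0.0656). Same-numbered mice correlated at -0.37, 0.15, -0.11, and -0.33 in their deviations. The mice of replicates 1, 3, and 4 differed in Xist class, so these correlations cannot decide whether the numbers pair the mice. Whether the block fit measures a weaker effect was not tested. Where the number of mice or genes did not itself change, the cause was not tested.

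Among the single genes followed through the alternatives, no called gene changed direction. Uncalled genes near 0 did: with quantile normalization Egln1 (0.039), Hif1an (0.032), Arnt (0.033), and Epor (-0.11); with the replicate block Epor (-0.041); in the mice with high Xist Egln1 (0.0091), Egln3 (0.36), Calcrl (-0.14), and Ramp3 (0.060). With 1 mouse left out, values ranged from -0.046 to 0.036 for Egln1, -0.14 to 0.033 for Bnip3, -0.13 to 0.026 for Vhl, -0.094 to 0.038 for Hif1an, -0.025 to 0.17 for Calcrl, -0.13 to 0.021 for Ramp3, and -0.54 to 0.40 for Epor. Over the single genes and alternatives, 40 values lost a call and 33 gained one in the same direction. Epo, at 0.15 without the filter, was at -0.40 in the mice with high Xist and at 0.01 to 0.49 in the fits without 1 mouse that kept it. Epo, Ankrd37, and Car9 rest on few counts, 2 to 90 per mouse. With 4 mice a group, 1 of them with low Xist among c-MafΔTAM and 2 among c-Maf fl/fl, genotype and Xist class are only partly separable.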
